A study of Mus musculus with 6 samples.

Results

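Among 11214 peaks called in 6 libraries labelled H3K27me3 from mouse primary mesangial cells, 380 lay on coding exons away from promoters. A peak was counted as a coding exon peak when it lay on chromosome 1 to 19, overlapped the coding sequence of a protein-coding gene by at least 1 bp and kept more than 2 kb from every transcription start site (TSS) of a protein-coding transcript. The 380 peaks made up 3.58% of the 10618 autosomal peaks. Mesangial cells are the contractile support cells of the kidney glomerulus. There were 3 Control samples and 3 TGF-β1 samples, the latter exposed for 72 h to a dose of 10 ng/ml. All of them came from primary cells at passages 3 to 6 in medium with 25.5 mM glucose and 20% fetal bovine serum, and the high glucose was thus common to both groups. The labels do not say whether the 3 samples of a group were separate cultures, and p-values measure only the spread between these samples. The peaks of each sample were called on their own, without an input library, and the headers of the lists call the aligned libraries gDNA. The extraction text speaks of genomic DNA and a kit for methylated DNA, whereas sample titles and antibody name H3K27me3, and peak lists alone cannot tell these apart. Nor can they tell fewer cells with a mark from less of it per cell.

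Trimethylation of lysine 27 of histone H3 is laid down by Polycomb repressive complex 2 and is known from the promoters and bodies of silent developmental genes, where it often covers CpG islands. Most CpG islands stand at promoters, but some lie inside genes, where they can span a coding exon. TGF-β1 is the main profibrotic cytokine of the kidney and makes mesangial cells deposit extracellular matrix.

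Stretches of coding exon peaks from 6 genes show the sequences under these calls. They were read from the mm9 assembly on the strand of the gene, 5′ to 3′, with every CpG in capitals. Sfi1 was the only gene with a coding exon peak in all 6 samples, Btbd17 and Arhgap9 had one in every Control sample and in no TGF-β1 sample, Grin2d and Galr2 had one in 2 TGF-β1 samples, and Pcdh17 had one on its large first coding exon in 5 samples. The stretches themselves were not covered in all of these samples. Counting peaks at any distance from a TSS, the Sfi1 stretch lay under a peak in 1 Control and 3 TGF-β1 samples, the Grin2d stretch in 2 Control samples and 1 TGF-β1 sample, the Galr2 stretch in all 6 samples and the Pcdh17 stretch in 3 Control samples and 1 TGF-β1 sample.
Sfi1, chr11:3055349-3055588, minus strand, inner coding exon 12 of 32 with its intron flanks, 98 coding bases, 2 CpG: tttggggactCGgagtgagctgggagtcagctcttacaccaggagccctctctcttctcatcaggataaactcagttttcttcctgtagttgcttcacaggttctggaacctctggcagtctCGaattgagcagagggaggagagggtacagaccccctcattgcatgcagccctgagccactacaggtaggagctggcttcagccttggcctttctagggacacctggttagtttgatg
Btbd17, chr11:114653575-114653814, minus strand, last coding exon, 240 coding bases, 19 CpG: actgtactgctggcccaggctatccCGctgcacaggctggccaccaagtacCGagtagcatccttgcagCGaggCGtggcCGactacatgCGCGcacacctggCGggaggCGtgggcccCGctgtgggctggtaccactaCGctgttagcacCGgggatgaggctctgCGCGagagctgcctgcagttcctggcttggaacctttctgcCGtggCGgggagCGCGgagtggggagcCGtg
Arhgap9, chr10:126763929-126764168, plus strand, inner coding exons with an intron between them, 160 coding bases, 18 CpG: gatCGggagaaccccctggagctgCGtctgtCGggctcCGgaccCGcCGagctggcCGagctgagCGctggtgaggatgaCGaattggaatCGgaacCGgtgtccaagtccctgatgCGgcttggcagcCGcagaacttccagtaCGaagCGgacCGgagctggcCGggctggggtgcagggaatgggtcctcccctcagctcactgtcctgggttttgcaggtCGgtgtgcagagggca
Grin2d, chr7:53089165-53089404, minus strand, last coding exon, 240 coding bases, 37 CpG: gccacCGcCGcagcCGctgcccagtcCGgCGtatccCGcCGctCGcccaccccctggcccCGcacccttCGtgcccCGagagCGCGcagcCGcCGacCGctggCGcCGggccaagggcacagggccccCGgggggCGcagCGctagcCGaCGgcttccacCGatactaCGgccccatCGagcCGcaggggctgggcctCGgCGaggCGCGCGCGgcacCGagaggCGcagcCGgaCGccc
Galr2, chr11:116144574-116144813, plus strand, last coding exon, 240 coding bases, 20 CpG: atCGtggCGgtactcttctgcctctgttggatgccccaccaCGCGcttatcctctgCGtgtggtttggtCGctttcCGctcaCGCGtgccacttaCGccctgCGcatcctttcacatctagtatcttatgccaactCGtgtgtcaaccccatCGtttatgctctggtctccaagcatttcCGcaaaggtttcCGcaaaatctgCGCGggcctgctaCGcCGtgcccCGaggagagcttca
Pcdh17, chr14:84846525-84846764, plus strand, first coding exon, 240 coding bases, 13 CpG: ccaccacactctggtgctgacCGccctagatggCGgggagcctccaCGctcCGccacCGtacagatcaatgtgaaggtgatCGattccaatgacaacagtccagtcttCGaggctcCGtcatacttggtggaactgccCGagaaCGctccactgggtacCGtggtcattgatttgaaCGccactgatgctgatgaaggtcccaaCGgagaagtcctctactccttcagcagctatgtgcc
The CpG ratio, which is the number of CpG observed over the number expected from the C and G content, was 0.979 in the Grin2d stretch and 1.08 in the Galr2 stretch. It was 0.710 in Btbd17, 0.716 in Arhgap9 and 0.691 in Pcdh17. The Sfi1 stretch differed from the others, with a CpG ratio of 0.117. The GC content ran from 53.3% in Sfi1 to 80.0% in Grin2d.

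Coding exon peaks were fewer in all 3 TGF-β1 samples than in any Control sample. There were 96, 101 and 64 in Control 1, 2 and 3 and 44, 29 and 46 in TGF-β1 1, 2 and 3. The means were 87.0 ± 20.1 and 39.7 ± 9.29 (SD, n = 3), a difference of -1.13 on the log2 scale with a pooled SD of 0.36. The 2-sided exact permutation p was 0.1, which is the smallest that 3 samples against 3 can give, so that no comparison of the groups could pass 0.05. Over the 32 measures compared between the groups in this way, the smallest p adjusted by the Benjamini-Hochberg method was 0.16.

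The fall of the coding exon peaks was of the size of the fall of the whole lists. They took 3.73%, 3.91% and 3.38% of the autosomal peaks in the Control samples and 2.91%, 3.64% and 3.66% in the TGF-β1 samples, and these ranges overlapped (exact permutation p = 0.5). When each list was cut to its 797 strongest autosomal peaks by the deposited −log10 q, the number in the shortest list, 32, 25 and 20 coding exon peaks were left in the Control samples and 23, 29 and 29 in the TGF-β1 samples. Over lists of equal length the log2 difference was 0.09 and the groups overlapped (exact permutation p = 0.7). The headers gave 20770206 to 21911472 tags after removal of duplicates in Control and 19721434 to 22307716 in TGF-β1, and the part of depth in the peak numbers was not tested. TGF-β1 2 had the most tags and the fewest peaks, while among the other 5 samples Control 1 and 2 had the most tags and peaks and TGF-β1 3 the fewest of both.

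**Figure D1:**
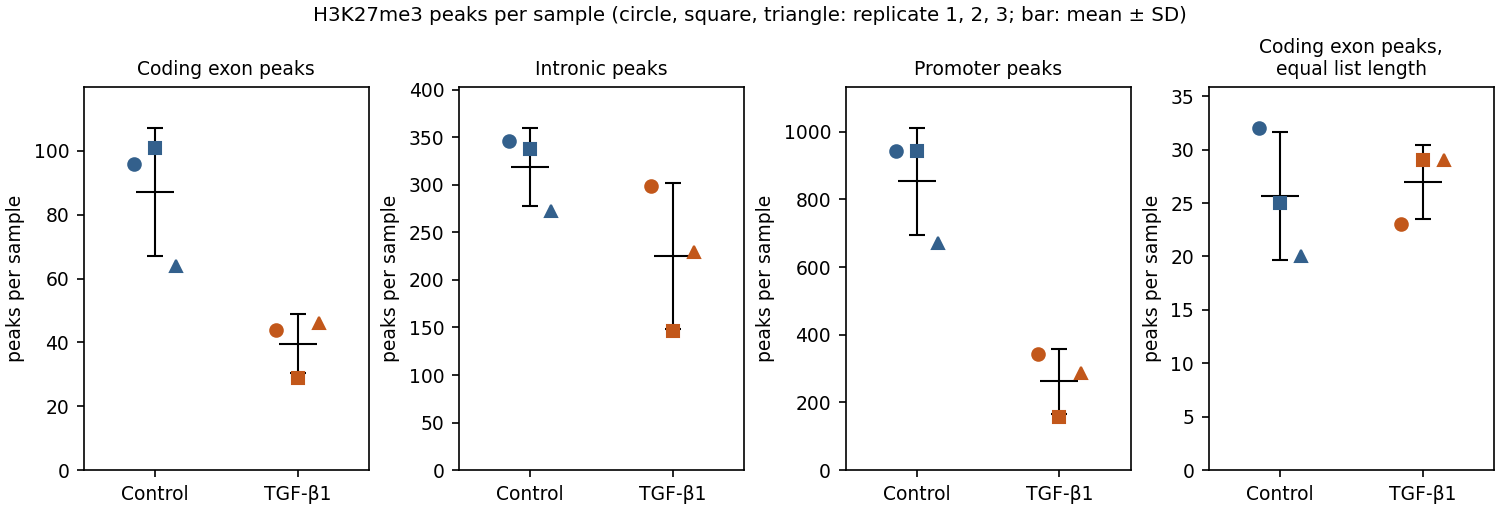
Number of coding exon, intronic and promoter peaks per sample (y axis) in Control and TGF-β1, with coding exon peaks in lists of equal length at the right. Each point is a sample and the bar is the mean ± SD. The coding exon peaks number 64 to 101 in Control and 29 to 46 in TGF-β1, and 20 to 32 against 23 to 29 over lists of equal length.

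Coding exon peaks stood between promoter and intronic peaks in how far they fell. Promoter peaks, within 2 kb of a TSS, numbered 944, 944 and 672 in Control and 344, 157 and 287 in TGF-β1, a log2 difference of -1.76 with a pooled SD of 0.46. Intronic peaks, which touched no exon of a protein-coding gene, numbered 346, 338 and 272 in Control and 299, 146 and 229 in TGF-β1, a difference of -0.56 with a pooled SD of 0.39 and with overlapping groups. The ratio of coding exon to promoter peaks was 0.101 ± 0.006 in Control and 0.158 ± 0.028 in TGF-β1 (SD, n = 3), and the groups did not overlap (exact permutation p = 0.1). The ratio of coding exon to intronic peaks was 0.271 ± 0.032 in Control and 0.182 ± 0.030 in TGF-β1 (SD, n = 3), again without overlap (exact permutation p = 0.1). Over lists of equal length the ratio to intronic peaks did overlap between the groups, with 0.323, 0.281 and 0.183 in Control and 0.159, 0.199 and 0.196 in TGF-β1.

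Peaks on coding sequence showed the largest difference at the start sites themselves. Of the peaks that overlapped coding sequence at any distance, those that covered a TSS numbered 199, 202 and 116 in Control and 60, 18 and 39 in TGF-β1, a log2 difference of -2.26 with a pooled SD of 0.70. From 1 bp to 2 kb the difference was -1.64. Inside the set described here, it was -1.32 from 2 to 5 kb, with 30, 38 and 25 peaks against 12, 11 and 14. From 5 to 10 kb it was -0.82, from 10 to 20 kb -1.34 and beyond 20 kb -1.05. The groups did not overlap from 2 to 5 kb and beyond 20 kb, and overlapped in both bands between. The first peaks inside the 2 kb limit lay 2003, 2055 and 2061 bp from a TSS, with fold enrichments of 1.68, 2.04 and 1.35, and those just outside it lay 1993, 1989 and 1971 bp away, with 1.54, 1.49 and 1.73. The median gap of a coding exon peak to the nearest TSS was 8742 bp, and 34 of the 380 lay more than 50 kb from one.

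**Figure D2:**
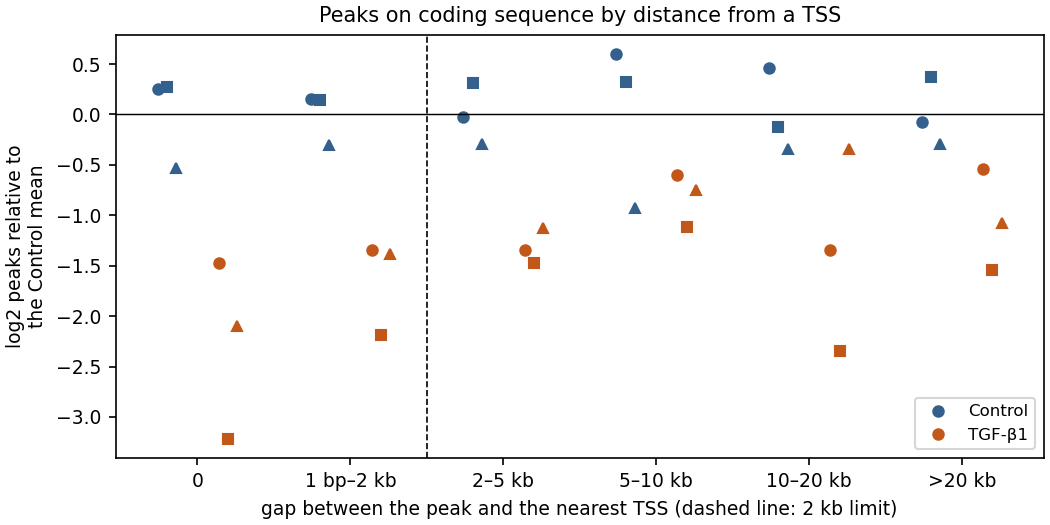
Peaks on coding sequence by gap to the nearest TSS (x axis) as log2 of the number per sample relative to the Control mean (y axis). Points are samples and the dashed line is the 2 kb limit. TGF-β1 samples lie lowest at gap 0, with a mean of -2.26, and between -0.82 and -1.34 on average in the bands beyond 2 kb.

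The coding exon peaks, like the autosomal peaks as a whole, were mostly weak calls. Fold enrichment, as deposited, divides the tag pileup by a local background taken from that library. Its median over coding exon peaks was 1.77, 1.68 and 1.80 in the Control samples and 1.78, 1.68 and 1.93 in the TGF-β1 samples, a log2 difference of 0.04 with a pooled SD of 0.08 (exact permutation p = 0.7). The groups overlapped in this measure. In the lists cut to equal length it was 1.98, 2.24 and 2.20 in Control and 1.99, 1.68 and 2.29 in TGF-β1. Of the 380 peaks, 271 (71.3%) had a deposited −log10 q under 1, against 68.7% of all autosomal peaks, and 31 reached 5. Set against intronic peaks of the same sample, the median fold enrichment was lower in 5 of 6 samples, by -0.05 on the log2 scale, and this difference did not pass the test (2-sided exact sign-flip test, p = 0.0938, n = 6).

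The 31 strongest peaks differed in make-up from the full set. They lay on 24 genes, 6 of them on Sfi1, with 19 in Control and 12 in TGF-β1 samples. Their median CpG ratio was 0.266 against 0.474 for all 380, and 8 (25.8%) were CpG-rich in the sense given further on. None lay on a first or single coding exon, 23 lay on inner and 8 on last coding exons. The genes named here were chosen after their values were seen. Wfdc5, a gene of the whey acidic protein family, had the highest −log10 q, 51.0, in TGF-β1 2, with a pileup of 159 fragments and a fold enrichment of 2.51. F5, which encodes coagulation factor V, had a −log10 q of 28.2 and a fold enrichment of 5.58 in TGF-β1 1. Both peaks were on genes reached in no other sample.

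The peaks were shorter in the TGF-β1 samples. The median length was 540, 557 and 456 bp in Control and 426, 366 and 421 bp in TGF-β1, without overlap (exact permutation p = 0.1). The coding bases covered summed to 29318, 29048 and 17390 in Control and 9318, 6097 and 9473 in TGF-β1, a log2 difference of -1.59 with a pooled SD of 0.40. The median peak held 186 coding bases, or 46.5% of its length. In all, 72 of the 380 peaks lay wholly inside an exon, 314 touched 1 coding exon and 66 touched 2 or more.

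The coding exon peaks held more CpG than the exons they could have fallen on. Each peak was set beside windows of 521 bp, the median length of the peaks rounded down, centred on each of the 153460 coding exons with bases over 2 kb from a TSS. The median GC content was 58.6% in the peaks and 47.4% in the windows, and the median CpG ratio 0.474 and 0.261. A GC content of at least 50% together with a CpG ratio of at least 0.6, called CpG-rich here, was met by 153 peaks (40.3%) and by 1701 windows (1.11%). The share was 5.46% in intronic peaks and 47.2% in promoter peaks. As the headers and the extraction text leave the immunoprecipitated material in doubt, the part of CpG methylation in these shares was not tested.

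Within every sample the coding exon peaks were richer in GC and CpG than the intronic peaks. The median GC content was 59.8%, 59.2% and 61.7% in Control and 57.8%, 56.3% and 55.8% in TGF-β1, while intronic peaks had 48.5% to 50%. The mean difference was 9.31 percentage points with an SD of 2.25 over the 6 samples (2-sided exact sign-flip test, p = 0.031, adjusted over 6 measures 0.0469). The median CpG ratio was 0.485, 0.527 and 0.577 in Control and 0.388, 0.375 and 0.366 in TGF-β1, against 0.122 to 0.191 in intronic peaks. The mean difference was 0.296 with an SD of 0.070, positive in 6 of 6 samples (exact sign-flip test, p = 0.031, adjusted 0.0469). CpG-rich peaks were 28.3% to 45.3% of coding exon peaks and 3.34% to 7.99% of intronic peaks, with the same direction and p in all 6 samples (exact sign-flip test). The smallest p that 6 samples allow is 0.031. The choice of the peaks required coding sequence, and its part in these differences was not tested. The exon windows had a median GC content of 47.4% and CpG ratio of 0.261, and all intronic peaks together 49.0% and 0.159.

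GC content and CpG ratio of the coding exon peaks were lower in the TGF-β1 samples, without overlap between the groups. The GC difference was -3.59 percentage points with a pooled SD of 1.2 and the CpG ratio difference was -0.153 with a pooled SD of 0.033 (exact permutation p = 0.1 for both). Both differences kept their direction in the lists of equal length, where the groups overlapped. Among peaks with a −log10 q of 5 or more, the CpG ratio difference turned to 0.116 (exact permutation p = 0.4). In the lists of equal length the median CpG ratio was 0.357, 0.285 and 0.615 in Control and 0.340, 0.375 and 0.254 in TGF-β1 (exact permutation p = 0.5). A lower CpG ratio was not particular to the coding exon peaks. In the full lists the intronic peaks had medians of 0.190, 0.191 and 0.162 in Control and 0.122, 0.143 and 0.135 in TGF-β1, also without overlap. Their median GC content overlapped between the groups.

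**Figure D3:**
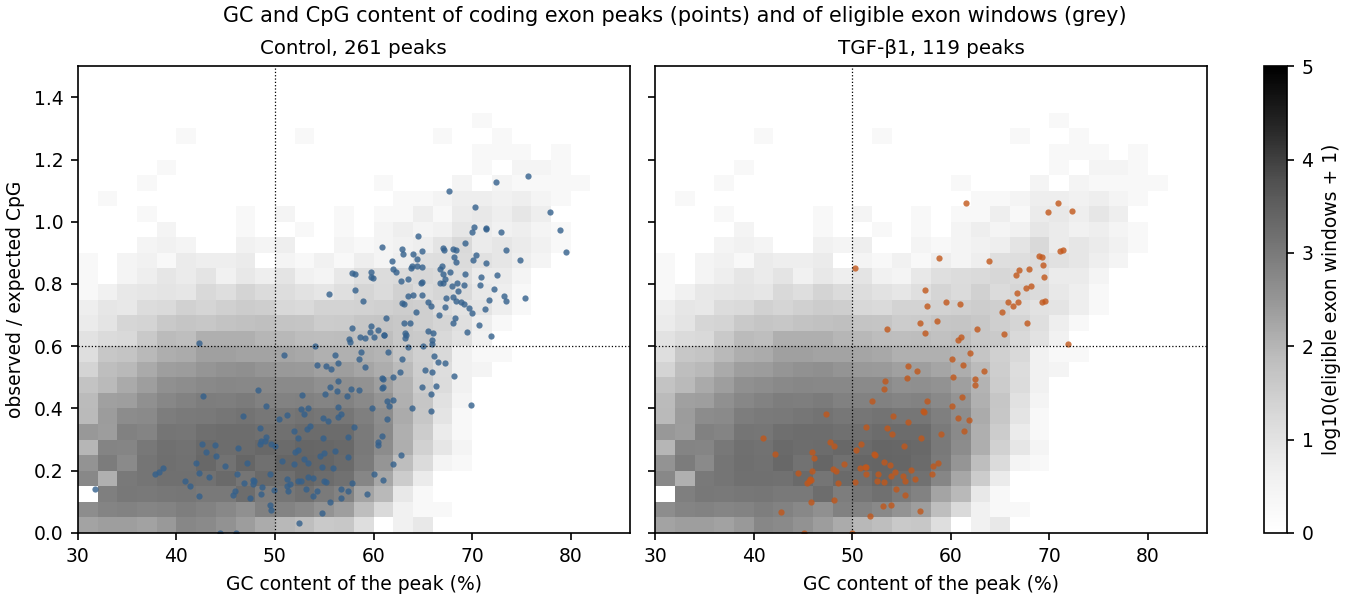
GC content (x axis, percent) and observed over expected CpG (y axis) of each coding exon peak in Control (left, 261 peaks) and TGF-β1 (right, 119 peaks). Grey shading counts eligible exon windows on a log scale and the dotted lines mark 50% GC and a ratio of 0.6. The upper right corner holds 114 Control and 39 TGF-β1 peaks and 1.11% of the windows.

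Inner coding exons held most of the peaks, but fewer than their share of coding sequence. Each peak was assigned to 1 coding exon of the transcript with the longest coding sequence. Inner coding exons carried 234 peaks (61.6%), last coding exons 98 (25.8%), first coding exons 23 (6.05%) and genes with a single coding exon 25 (6.58%). Of the coding bases over 2 kb from a TSS, 77.3% were in inner, 16.8% in last, 3.11% in first and 2.76% in single exons. Because a peak reaches beyond the exon, the same shares were computed over the positions at which a peak of 521 bp would touch each exon, which gave 84.9%, 11.8%, 2.23% and 1.03%. The inner share was below both backgrounds in all 6 samples. The exons hit had a median length of 248 bp against 126 bp for all eligible exons. By class the medians were 170 against 124 bp for inner and 466 against 150 bp for last exons. They were 784 against 136 bp for first and 1185 against 1053 bp for single exons. A longer exon offers more positions at which a peak touches it, and these medians were not weighted for that. CpG-rich peaks were 67 of the 234 on inner, 52 of 98 on last, 17 of 23 on first and 17 of 25 on single exons.

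Between the groups, the inner share was higher in TGF-β1. It was 57.3%, 59.4% and 57.8% in Control and 63.6%, 72.4% and 71.7% in TGF-β1, a difference of 11.1 percentage points with a pooled SD of 3.54, without overlap (exact permutation p = 0.1). The last exon share was 32.3%, 24.8% and 26.6% in Control and 27.3%, 20.7% and 15.2% in TGF-β1, with overlapping groups (exact permutation p = 0.3). First exons took 5.21%, 8.91% and 6.25% in Control and 2.27%, 0% and 8.70% in TGF-β1, counts of at most 9 peaks a sample. Over lists of equal length the inner share was 62.5%, 76.0% and 70.0% in Control and 78.3%, 72.4% and 69.0% in TGF-β1, and the groups overlapped. Among peaks with a −log10 q of 5 or more, the direction turned, with a difference of -17.5 points in the inner and 17.5 points in the last exon share (exact permutation p = 0.5).

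**Figure D4:**
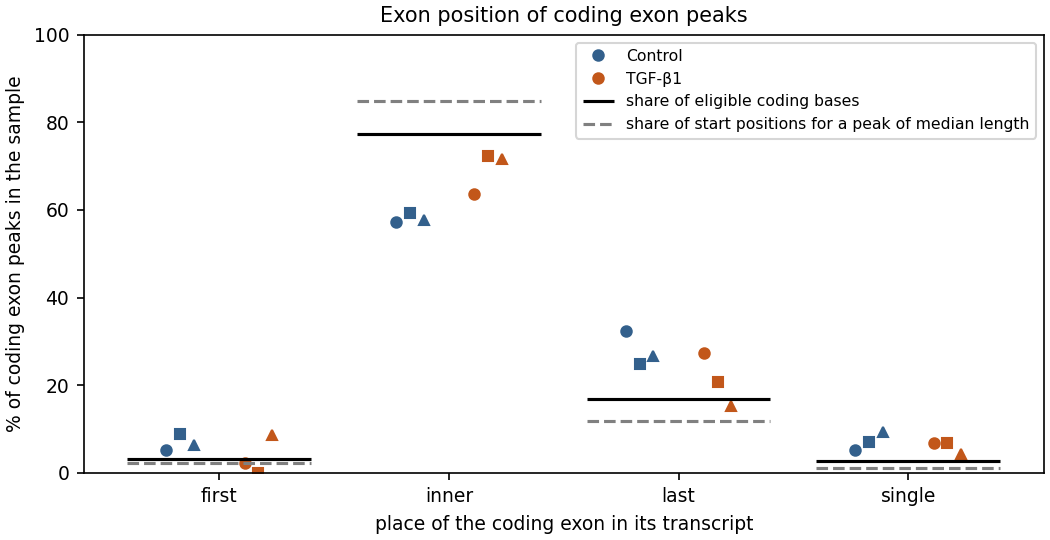
Share of the coding exon peaks of each sample (y axis, percent) on first, inner, last and single coding exons (x axis). Points are samples, the solid line is the share of eligible coding bases and the dashed line the share of positions for a peak of 521 bp. Inner exons hold 57.3% to 72.4% of the peaks against 77.3% of the bases.

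A minority of coding exon peaks, 71 of 380 (18.7%), stood beside a marked promoter of the same gene. Of all protein-coding genes, 7.58% had a promoter peak in any sample, which is a share of genes and not of peaks. A peak within 2 kb of a TSS of the same gene was called in the same sample for 20.8%, 22.8% and 17.2% of them in Control and 18.2%, 10.3% and 13.0% in TGF-β1. The groups overlapped (exact permutation p = 0.2). Without the peaks on Sfi1 the difference widened from -6.41 to -11.6 percentage points (exact permutation p = 0.1). Over lists of equal length, with promoter peaks from the same lists, the direction turned, with 3.12%, 4% and 5% in Control and 17.4%, 10.3% and 13.8% in TGF-β1. The share exceeded that of intronic peaks in 5 of 6 samples, by 4.17 percentage points on average with an SD of 5.04 (exact sign-flip test, p = 0.125, n = 6). Another peak of any kind lay within 5 kb of 9.80% of the coding exon peaks and of 3.93% of the intronic peaks on average, a difference of 5.87 points that was positive in 6 of 6 samples (exact sign-flip test, p = 0.031, adjusted 0.0469).

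The peaks were unevenly spread over the chromosomes. Chromosome 8 carried 50 peaks, or 38.8 per Mb of eligible coding sequence, which was 13.2% of the coding exon peaks beside 11.2% of all autosomal peaks. Chromosome 11 carried 59, or 30.4 per Mb, and 35, or 18.03 per Mb, without those on the gene Sfi1, beside 20.7 per Mb on chromosome 1. Chromosome 9 carried 5, or 3.29 per Mb, and chromosome 12 carried 3, or 3.23 per Mb, and these held 1.85% and 3.39% of all autosomal peaks. The promoters of the mesangial markers Pdgfrb, Itga8, Gata3, Acta2, Des and Thy1 held no peak in any sample, and that of Serpine2 held one in 3 Control samples. Of the podocyte markers 2 of 5, of the tubular markers 2 of 6 and of the endothelial and macrophage markers 0 of 5 and 0 of 4 had a promoter peak in any sample, against 7.58% of all protein-coding genes. Peak lists hold no RNA, and the cell type could not be checked further.

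A total of 227 genes had a coding exon peak, and 76 had one in 2 or more samples. Recurrence was counted by gene, so the peaks of a gene could lie at different places or exons in different samples. The 76 recurrent genes were 0.446% of the 17038 genes with eligible coding sequence. Their number depended on the lists, with 47 without Control 1 or without Control 2, 40 beyond 5 kb from a TSS, 12 in the lists of equal length and 3 with a −log10 q of 5 or more. Control samples reached 177 genes, TGF-β1 samples 92, and 42 were reached in both groups. Of the recurrent genes, 45 had a peak in more Control than TGF-β1 samples, 7 in more TGF-β1 samples and 24 in equal numbers. The Control lists were longer, with 2350 autosomal peaks on average against 1189 in TGF-β1. The part of list length in these counts by group was not tested. Merged across samples, the peaks formed 259 regions, of which 91 (35.1%) were called in 2 or more samples by any peak, against 26.7% of the 6711 autosomal regions. Regions called in 2 or more samples had a median CpG ratio of 0.548 and were CpG-rich in 42 cases (46.2%), while those called in 1 sample had 0.359 and 43 of 168 (25.6%). Regions called in both groups were CpG-rich in 48.1% of 54 cases, those in Control alone in 34.4% of 151 and those in TGF-β1 alone in 13.0% of 54.

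**Figure D5:**
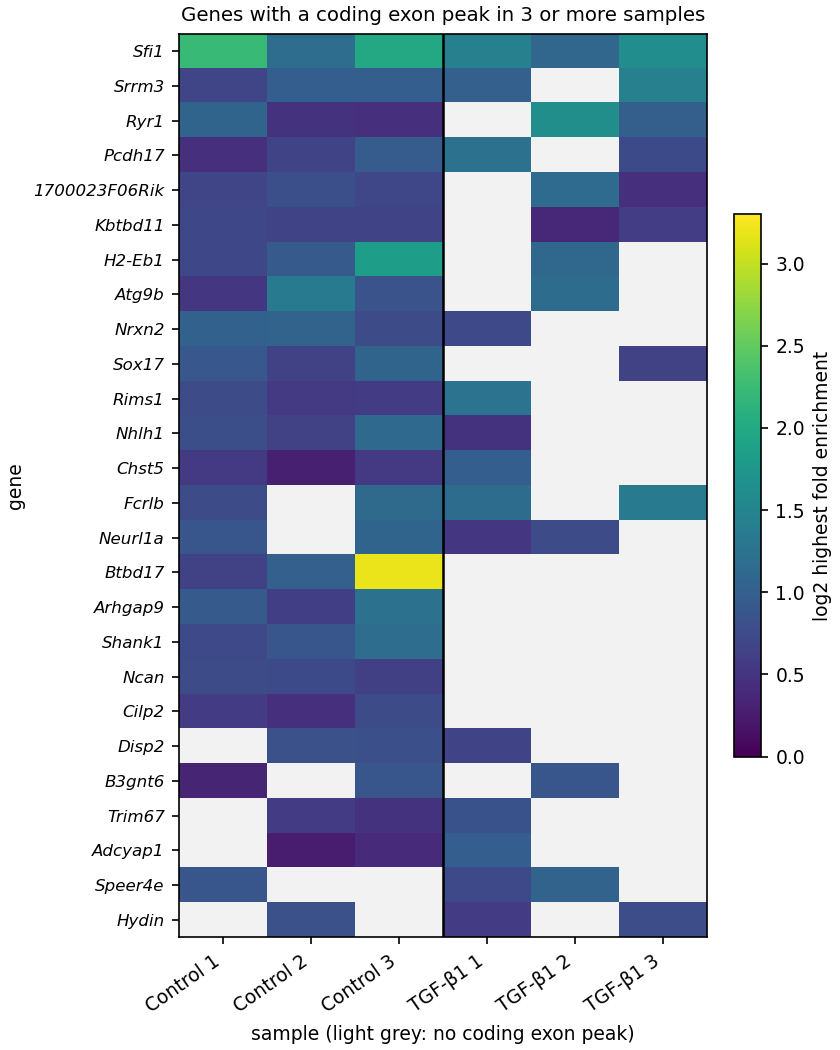
Genes (rows) with a coding exon peak in 3 or more samples, with the highest log2 fold enrichment of such a peak in each sample (columns) as colour and light grey where none was called. Sfi1 is filled in all 6 columns, 5 genes only in the 3 Control columns, and Btbd17 in Control 3 has the highest value, a fold enrichment of 9.19.

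Sfi1, which encodes a centrin-binding centrosome protein, held more coding exon peaks than any other gene. It carried 24 of the 380, with 5, 4 and 3 in Control and 5, 3 and 4 in TGF-β1, on 9 of its 32 coding exons within chr11:3039601-3080103. The gene with the next most peaks, Srrm3, carried 9. The highest fold enrichment on Sfi1 was 4.69, 2.26 and 3.97 in Control and 2.71, 2.12 and 3.07 in TGF-β1, so that the groups overlapped. Its peaks had a median pileup of 25.3 against 7.67 over all coding exon peaks, a median CpG ratio of 0.166, and none was CpG-rich. In the region at its coding exon 21, 24.1% of the 31-base words occurred more than once in the assembly, and in its other regions 0% to 6.73%. Without the peaks on Sfi1 the log2 difference in peak number was -1.22 (exact permutation p = 0.1).

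The 5 genes with a peak in 5 samples were named after their values were seen. All of them missed 1 TGF-β1 sample. Srrm3, a neuronal splicing regulator, had fold enrichments of 1.61, 1.98 and 1.98 in Control and 2.02 and 2.70 in TGF-β1 1 and 3. Ryr1, the calcium release channel of skeletal muscle, had 2.09, 1.40 and 1.36 in Control and 3.11 and 2.0 in TGF-β1 2 and 3. In 4 of these samples its peak lay on coding exon 91 of 106, which is 792 bp long. Pcdh17, a protocadherin, had 1.36, 1.60 and 1.95 in Control and 2.35 and 1.68 in TGF-β1 1 and 3, all on its first coding exon. 1700023F06Rik had 1.61, 1.74 and 1.62 in Control and 2.22 and 1.38 in TGF-β1 2 and 3, and Kbtbd11, a gene with 1 coding exon, had 1.64, 1.60 and 1.59 in Control and 1.29 and 1.52 in TGF-β1 2 and 3.

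The 9 genes with a peak in 4 samples were also named after their values were seen. For 7 of them the 4 samples were the 3 Control samples and 1 TGF-β1 sample. H2-Eb1, an MHC class II chain, had 1.65, 1.92 and 3.61 in Control and 2.16 in TGF-β1 2, and Nrxn2, a presynaptic neurexin, had 2.03, 2.07 and 1.69 in Control and 1.65 in TGF-β1 1. Rims1, a protein of the presynaptic active zone, had 1.69, 1.47 and 1.5 in Control and 2.39 in TGF-β1 1. Nhlh1, a neuronal helix-loop-helix factor with 1 coding exon, had 1.74, 1.57 and 2.18 in Control and 1.39 in TGF-β1 1. The others with this pattern were Atg9b, Chst5 and Sox17. Fcrlb and Neurl1a had a peak in 2 Control and 2 TGF-β1 samples.

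A coding exon peak in all 3 Control samples and no TGF-β1 sample was found on 5 of the 227 genes, or 2.2%. Btbd17, a BTB domain gene, had fold enrichments of 1.56, 2.01 and 9.19 on its last coding exon, where the value of Control 3 stood far above the other two. Arhgap9, a GTPase activating protein, had 1.90, 1.53 and 2.35 in peaks assigned to its coding exons 8 and 9 of 16. Shank1, a scaffold protein of excitatory synapses, had 1.66, 1.85 and 2.27 on coding exon 23 of 24, and its promoter held a peak in the same 3 samples and in no TGF-β1 sample. The Control peaks on Shank1 did not all overlap each other. Ncan, the brain proteoglycan neurocan, had 1.69, 1.68 and 1.54, and Cilp2, a cartilage matrix protein, had 1.51, 1.36 and 1.68. No TGF-β1 sample had a peak of any kind on the coding sequence of these 5 genes. At the level of regions, 6 of 259 (2.32%) were called in all 3 Control and no TGF-β1 sample, against 2.31% of all autosomal regions, so the share was that of the background. One of these, on the last coding exon of Ppp4r2, was named after its values were seen, and 86% of its 31-base words were repeated in the assembly. No gene met the rule in the lists of equal length, while 9 met it without TGF-β1 1. Without Control 1, 2 and 3 the number was 12, 8 and 19, but a peak was then required only in the Control samples that were left.

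A coding exon peak in 2 or 3 TGF-β1 samples and no Control sample was also found on 5 of 227 genes, or 2.2%, and none of these had it in all 3. Without TGF-β1 1, 2 and 3 the number was 1, 2 and 2. For 4 of them the Control samples had peaks on the coding sequence as well, which came within 2 kb of a TSS and so were not counted as coding exon peaks. Grin2d, an NMDA receptor subunit, had 2.18 and 2.09 in TGF-β1 1 and 3 on its last 2 coding exons, while 3 Control samples had a peak on its coding sequence that came within 2 kb of a TSS. Control peaks covered the same exons, since the last exon region was called in Control 1 and 2 at 1.56 and 1.79 as well as in TGF-β1 1, and the exon 11 region in Control 1 as well as in TGF-β1 3. Galr2, a galanin receptor, had 2.04 and 1.88 in TGF-β1 1 and 2. Comp, the cartilage oligomeric matrix protein, had 1.66 and 1.83 in TGF-β1 2 and 3. Galr2 and Comp had a peak of any kind on their coding sequence in all 3 Control samples. Of the 5 genes only Atp2b2, a plasma membrane calcium pump, had no Control peak on its coding sequence, with 1.47 and 1.75 in TGF-β1 1 and 3 and a median CpG ratio of 0.05. Of the regions, 3 of 259 (1.16%) were called in 2 or 3 TGF-β1 samples and no Control sample, against 1.03% of all autosomal regions.

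Recurrent coding exon peaks took a larger share of homeobox and other developmental transcription factor genes than of all genes, though the numbers were small. Of 132 homeobox genes with eligible coding sequence, 5 (3.79%) were recurrent, beside 0.446% of all genes. Nkx1-2 had a fold enrichment of 1.94 in Control 2 and 2.29 in TGF-β1 3, and Irx1 had 1.88 in Control 2 and 1.36 in TGF-β1 2. Cdx2, a factor of the intestine, had 1.98 in Control 2 and 1.76 in TGF-β1 3. These 2 Cdx2 peaks did not overlap, with coding exon 3 hit in Control 2 and coding exon 2 in TGF-β1 3. Nkx3-2, which acts in cartilage, had 2.0 and 1.22 in Control 1 and 2 and no peak in TGF-β1. Of 106 other developmental transcription factors 2 (1.89%) were recurrent. Sox17, an endoderm and endothelial factor, had 1.87, 1.56 and 2.1 in Control and 1.55 in TGF-β1 3. Its peaks lay on the last coding exon in Control 1 and TGF-β1 3 and on the first in Control 2 and 3. Gata4, a factor of heart and endoderm, had 1.74 and 1.54 in Control 1 and 2. None of 331 C2H2 zinc finger genes named Zfp was recurrent. The region on the last coding exon of Zfp423 was nevertheless called in 3 Control and 2 TGF-β1 samples when peaks at any distance from a TSS were counted.

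Of 81 cadherin superfamily genes, 3 (3.70%) were recurrent, and all 3 were protocadherins with the peak on the first coding exon. Beside Pcdh17, Pcdh10 had 2.15 in Control 2 and 1.65 in TGF-β1 3, and Pcdh8 had 1.04 and 1.2 in Control 2 and 3. Of 247 ion channel and neurotransmitter receptor genes 5 (2.02%) were recurrent. Among them Kcnh6, a voltage-gated potassium channel, had 6.84 and 1.29 in Control 1 and 2, and Grin2c, an NMDA receptor subunit like Grin2d, had 1.62 and 3.01 in Control 1 and 3.

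Of 126 genes of Wnt, BMP, FGF, TGF-β, Notch and Hedgehog signalling 2 (1.59%) were recurrent. Among them Dhh, a Hedgehog ligand, had 1.52 and 1.96 in Control 1 and 2. Of 143 genes on the list of extracellular matrix and remodelling genes 2 (1.40%) were recurrent. These were Ncan and Mmp28, a matrix metalloproteinase with 1.69 in Control 1 and 1.55 in TGF-β1 1. The lists were fixed by symbol pattern, and this one left out Cilp2 and Comp, matrix genes that were also recurrent. Of 67 axon guidance genes none was recurrent. The lists differ in how much coding sequence their genes hold, and no list was tested. The median was 622 eligible bases in the homeobox, 2300 in the cadherin and 3510 in the matrix genes against 1071 over all genes. Genes with a coding exon peak in any sample numbered 8.96 per Mb of eligible coding sequence over all genes. The number was 80.1 for homeobox, 27.9 for other developmental factors, 28.9 for signalling, 18.8 for channel and receptor and 14.2 for cadherin genes. It was 11.4 for axon guidance, 7.08 for matrix and 3.69 for Zfp genes.

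Fold enrichment at regions shared by all samples was compared with limma on the log2 scale. Of 240 regions called in all 6 samples, on any chromosome, 0 (0%) passed an adjusted p of 0.05 and 24 had an unadjusted p under it. A coding exon peak stood in 5 of the 240 regions, and none of the 5 passed. The value of a sample was the highest of any of its peaks in the region, also of peaks within 2 kb of a TSS. A coding exon peak itself was called in 2 samples at Comp, 2 at Galr2 and 1 at Ddo. At coding exons 21 and 5 of Sfi1 it was called in 5 and 4 samples. The region at Comp had 1.81, 1.66 and 1.34 in Control and 2.60, 1.77 and 1.93 in TGF-β1, a log2 difference of 0.38 with a standard error of 0.20 (limma, adjusted p = 0.498). The region at Galr2 had 1.93, 1.77 and 1.85 against 2.04, 1.88 and 1.93, a difference of 0.08 with a standard error of 0.11 (limma, adjusted p = 0.891). At Ddo, which encodes D-aspartate oxidase, the difference was 0.27 with a standard error of 0.16 (limma, adjusted p = 0.571), and 51.6% of the 31-base words of the coding exon region were repeated in the assembly. The regions at coding exons 21 and 5 of Sfi1 differed by 0.22 and -0.06, with standard errors of 0.22 and 0.11 (limma, adjusted p = 0.767 and 0.900).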

How the data were processed

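The titles and antibody label give H3K27me3 ChIP-seq in 3 Control and 3 TGF-β1 samples, grouped by the treatment label. According to the study's methods, the authors aligned reads to mm9 with BWA. MACS 2.1.0.20150731 was run by sample in broad mode with no control file, per the file headers, and 19721434 to 22307716 tags per sample were kept. The authors' pileup is a signal, the number of fragments piled up in a peak. Fold enrichment in the deposited lists is the ratio of pileup to expected background. The deposited p and q are given as −log10. Precision was judged from the spread between samples, since read counts by peak were not at hand.

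Peaks were placed on GENCODE M1 and the NCBIM37 assembly (mm9) with Python 3.11.15. TSS were the 5′ ends of all protein-coding transcripts. Exact permutation tests (20 assignments) and exact sign-flip tests were 2-sided. Shared regions were fitted with limma 3.58.1 (R 4.3.3) and Benjamini-Hochberg adjustment. Classification and limma were tested on simulated data. Alternatives covered the q threshold, the overlap, the TSS definition and distance, list length, exon numbering, pileup, left-out samples and a replicate block.

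The members and lists were chosen with earlier results of these data known. Named genes were those with a peak in all 6 samples, in 3 Control and no TGF-β1 samples, or in 2 or 3 TGF-β1 and no Control samples, and up to 4 recurrent genes of each list, and 1 gene that met the rule is not reported here.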

Additional observations from a re-analysis of the deposited data

How the results depend on the processing

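Of 209 alternative values, 175 kept the direction and the side of the threshold, or stayed within 1.5 times the count. For comparisons between the groups no exact p under 0.1 was possible. The side of 0.05 was thus fixed in advance there, and only the direction could change. When a −log10 q of 5 was required, 31 coding exon peaks were left. The difference then reversed for their share of peaks (0.67 percentage points) and the inner and last exon shares (-17.5 and 17.5 points). It also reversed for the median CpG ratio (0.116), the median fold enrichment (-0.64, log2) and the fold enrichment against intronic peaks (0.082). The first exon share and the share with a promoter peak of the same gene differed by 0, which was counted as reversed. There were 0 Control-only, 1 TGF-β1-only and 3 recurrent genes. Beyond 5 kb from a TSS the first exon share reversed (0.0075 points), with 2, 2 and 40 such genes. Over lists of equal length the peak number reversed (0.091), with 0, 1 and 12 genes. A coding overlap of 100 bp gave 3 TGF-β1-only genes, gene 5′ ends alone 10 Control-only genes, and counting any Control peak on the coding sequence 1 TGF-β1-only gene. Without Sfi1, an alternative chosen after seeing the data, as were peaks over 400 bp only and lists of equal length for all but peak number, ratios of peak classes and gene counts, the difference of -0.045 from intronic peaks had an exact sign-flip p of 0.031. Pileup scaled to tag depth called 2 of 240 regions. The cause was not tested.

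Leaving out 1 sample gave 6 to 19 Control-only, 1 to 6 TGF-β1-only and 47 to 72 recurrent genes (19 without Control 3, 1 without TGF-β1 1, 47 without Control 1 or 2), and -0.015 to 0.084 for median fold enrichment, below 0 without TGF-β1 3. Control-only here meant a peak in every Control sample that was left, which is a looser rule when a Control sample is dropped. Same-numbered samples did not deviate together over the 240 regions (correlations -0.088, -0.040 and -0.148), and numbers come from titles only. With a replicate block the peak number differed by -1.13 (exact sign-flip p = 0.25, the smallest 3 pairs allow), limma called 0 regions, and no call changed.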
